A study of Rattus norvegicus with 8 samples.

Results

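The question addressed is whether fast C6 glioma cells differ from slow ones in the same way in 2 sets of cells. C6 is a long-established rat glioma line that grows as a mixture of cells with glial features. All 8 of the 8 arrays were used, and their titles put them in 4 groups of 2: slow and fast cells of C6, and slow and fast cells of C6SPGFP. The labels name the C6 line as the source of every group, total RNA as the material and migration as the subject. They do not explain C6SPGFP, so it is used here only as the name of the second set, and the sources used here do not say how fast cells were separated from slow ones. Nor do they tell whether the 2 arrays of a group came from different cultures. The p-values therefore measure the spread between these particular samples, which may be technical. The measure reported is the set difference: the log2 change from slow to fast cells in C6SPGFP minus the same change in C6. A positive set difference means that the gene's fast level, relative to slow, was higher in C6SPGFP than in C6.

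Glioma cells spread through brain tissue by crawling along vessels and nerve fibre tracts, for which they remodel matrix, adhesion and the cytoskeleton. Secreted chemokines and growth factors act on the same cells and on their neighbours, and glial lineage regulators such as Sox10 set which surface and structural genes the cells make.

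The arrays were brought to one scale by quantile normalisation, because the deposited scale of C6SPGFP fast replicate 1 was about 5 times that of the other 7 arrays (2% trimmed mean of 500.5 against 100.1 to 105.8). Levels below are normalised signals in arbitrary units, changes are on the scale of log2(signal + 8), and 6684 probe sets passed a mean signal of 8. Arrays of C6 fast cells were the least like the others: their correlation with C6SPGFP arrays was 0.8995 to 0.9126, against 0.9693 to 0.9778 between replicates (Pearson's r across probe sets, which are not independent). Vim, the intermediate filament that marks these cells, had signals of 3082 and 2681 in C6 slow, 2594 and 2723 in C6 fast, 3256 and 3102 in C6SPGFP slow and 3602 and 3831 in C6SPGFP fast cells. Its set difference was 0.34 ± 0.14 (limma adjusted p = 0.288), the value after ± being the standard error of the fit to all 8 arrays here and below. The C6SPGFP change does not use the C6 fast means, and fitting the 4 C6SPGFP arrays alone gave 100 called probe sets in place of 93.

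The fast cell changes of the 2 sets differed at 255 of 6684 probe sets (3.82%; limma adjusted p under 0.05), with 181 positive (2.71%) and 74 negative (1.11%). These carried 186 named genes, 132 with a positive and 54 with a negative set difference. Before adjustment, 1030 probe sets had a p under 0.05. In single sets, 445 probe sets were called in C6 (6.66%: 2.69% with a rise and 3.96% with a fall) and 93 in C6SPGFP (1.39%: 1.06% with a rise and 0.329% with a fall). The difference in those counts is not itself a test, and only the 255 calls bear on whether the changes differ. Without any single C6SPGFP array the count fell to 122 to 140 probe sets, of which 114 to 126 were among the 255.

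The 255 probe sets were sorted by the size of the change in each set, with 0.5 on the log2 scale counted as a move. In 136 of them (53.3%) the C6 change reached 0.5 and the C6SPGFP change did not. In 79 (31.0%) both changes reached 0.5 with opposite signs, in 26 (10.2%) only the C6SPGFP change reached it, in 12 (4.7%) both moved in the same direction by different amounts, and in 2 (0.8%) neither did. Of all 6684 probe sets these classes held 18.7%, 2.3%, 8.4%, 3.1% and 67.5%, in the same order. A call on the difference favours opposite and one-sided changes, so the split of the 255 is a description and not a test. Both changes were themselves called in 15 of the 79 probe sets with opposite signs. Here and below, calls said to end without an array did so without at least 1 C6SPGFP array. A gene whose change is under 0.5 in one set is not thereby shown to be unchanged there.

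**Figure D1:**
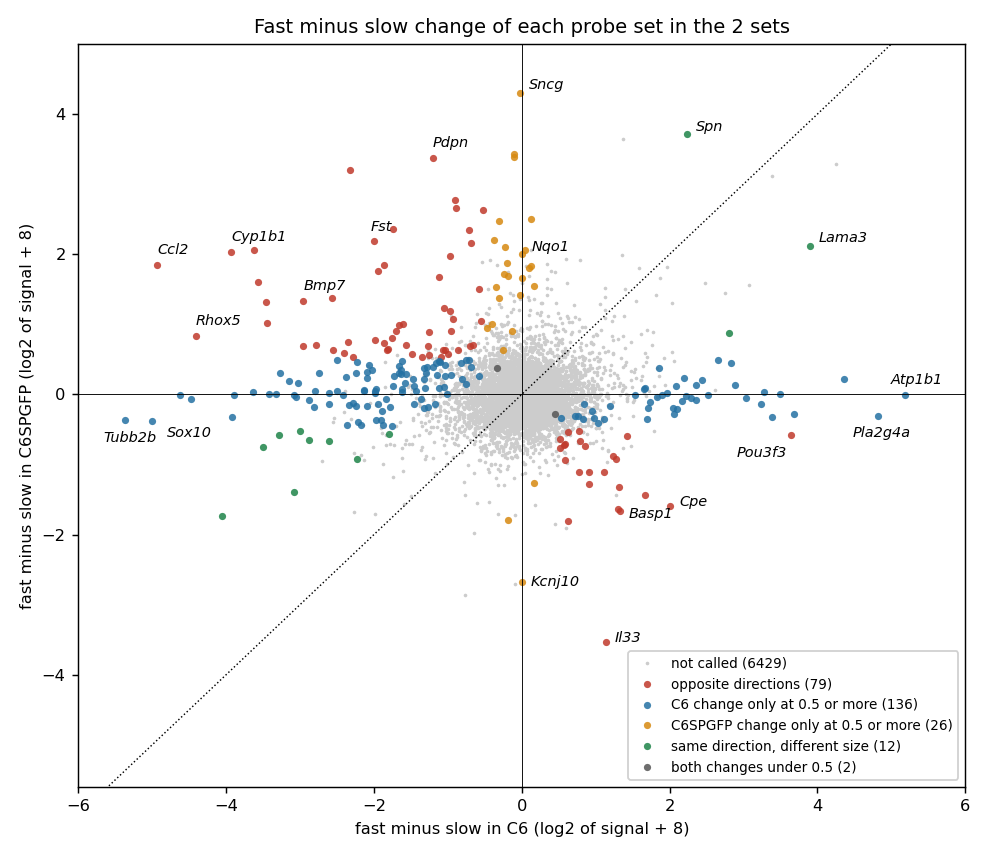
Fast minus slow change in C6 (x axis) against that in C6SPGFP (y axis), each as a difference of group means of log2(signal + 8), for the 6684 probe sets tested; coloured points are the 255 whose changes differed (limma adjusted p under 0.05) and the dotted line marks equal change. Most coloured points lie along the horizontal line of no C6SPGFP change, and the 79 with opposite signs fill the upper left and lower right.

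A second description asked which of the 4 groups stood apart, as the group whose mean lay farthest from the mean of the other 3 when those 3 spanned less than 50% of that distance. C6 fast cells were that group for 131 of the 255 probe sets (51.4%), lower than the rest in 93 and higher in 38. C6SPGFP fast cells stood apart in 19 (7.5%), C6SPGFP slow cells in 11 (4.3%) and C6 slow cells in 5 (2.0%). No single group stood apart in 89 (34.9%). Of all 6684 probe sets, C6 fast cells stood apart in 13.5% and C6SPGFP fast cells in 6.2%. C6SPGFP slow cells did so in 6.5%, C6 slow cells in 7.3%, and no single group in 66.5%. Since the C6 fast arrays also differed from the others across all probe sets, the part of anything peculiar to those arrays in these 131 results was not tested.

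**Figure D2:**
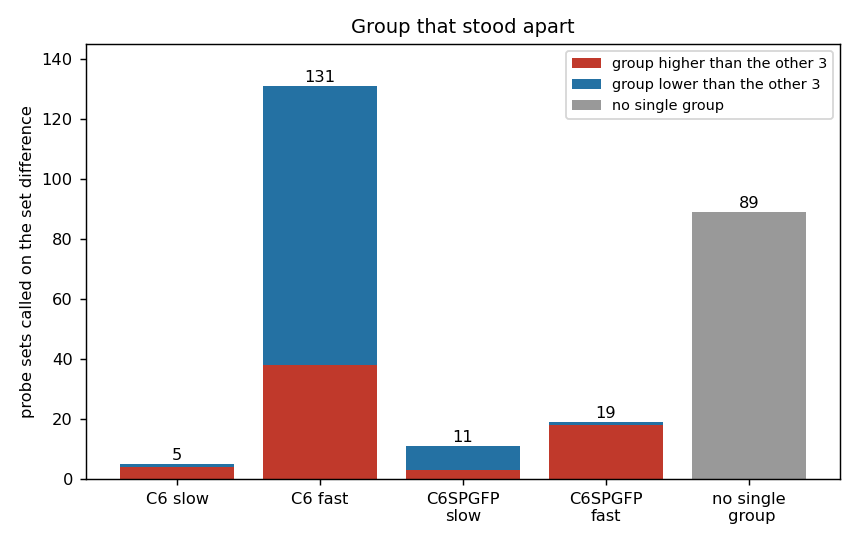
Number of the 255 probe sets with a set difference (y axis) for which each group (x axis) stood apart from the other 3, split into higher and lower. The C6 fast bar, at 131, is the tallest, and 93 of its probe sets were lower in C6 fast cells.

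The largest set differences among genes with opposite changes were those of Ccl2, Cyp1b1 and Rhox5. Ccl2, a chemokine that attracts monocytes, fell in C6 fast cells and rose in C6SPGFP fast cells, with signals of 1888 and 1753 in C6 slow, 45.6 and 58.5 in C6 fast, 149.7 and 170.4 in C6SPGFP slow and 634 and 564 in C6SPGFP fast cells. The set difference came to 6.79 ± 0.24 (limma adjusted p = 3.64e-06). A second Ccl2 probe set gave 5.17 ± 0.40 (limma adjusted p = 0.000245). Slow cells of the C6 set held the highest level and fast cells of the same set the lowest, and no groups overlapped. Bulk RNA was measured, so here and below fewer cells making a transcript and less of it per cell cannot be told apart.

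Fst, follistatin, which binds and neutralises activin, showed the same crossing, with signals of 1253 and 1072 in C6 slow, 245 and 330.3 in C6 fast, 128 and 139 in C6SPGFP slow and 634 and 636 in C6SPGFP fast cells. The C6 change was -1.998 (limma adjusted p = 0.000273) and the C6SPGFP change 2.18 (limma adjusted p = 0.000761), a set difference of 4.18 ± 0.25 (limma adjusted p = 8.14e-05). Bmp7, a bone morphogenetic protein, had 75.95 and 99.6 in C6 slow, 4.53 and 4 in C6 fast, 42.3 and 44.2 in C6SPGFP slow and 135 and 109 in C6SPGFP fast cells, a C6 change of -2.96 and a C6SPGFP change of 1.34. This gave a set difference of 4.29 ± 0.31 (limma adjusted p = 0.000167). In both genes the C6 slow and C6SPGFP fast arrays were the high ones within their sets, with no overlap.

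Genes of the cell surface and matrix in this class included Pdpn, Mmp16, F3 and Eln, the last being the only 1 of the 6 called genes of the matrix list in this class. Pdpn, podoplanin, a membrane glycoprotein linked to migration, was measured at 45.9 and 21.2 in C6 slow, 5.08 and 14.8 in C6 fast, 4.81 and 4.47 in C6SPGFP slow and 137 and 111 in C6SPGFP fast cells. It rose in C6SPGFP (3.38, limma adjusted p = 0.00315), while its C6 change of -1.201 was not called (limma adjusted p = 0.0945). The set difference was 4.58 ± 0.51 (limma adjusted p = 0.00146). Mmp16, a membrane-anchored metalloproteinase, fell in C6 from 47.4 and 39.7 to 0.91 and 0.46 and rose in C6SPGFP from 23.3 and 25.2 to 64.6 and 87.8. That is a set difference of 3.94 ± 0.33 (limma adjusted p = 0.000359). F3, tissue factor, which starts blood clotting, went from 174 and 115 to 6.84 and 4.65 in C6 and from 53.2 and 44.01 to 104 and 109 in C6SPGFP, with a set difference of 4.47 ± 0.34 (limma adjusted p = 0.00022). Only its C6 change was called. Eln, elastin, an elastic fibre protein, had the widest replicate spread of these genes: 88.8 and 179 in C6 slow, 49.9 and 13.03 in C6 fast, 60.04 and 64.95 in C6SPGFP slow and 237 and 224 in C6SPGFP fast cells. Its set difference of 3.71 ± 0.65 (limma adjusted p = 0.0164) lost its call without any 1 of the C6SPGFP arrays (limma adjusted p up to 0.0766).

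Among intracellular genes, Cyp1b1, a cytochrome P450 induced through the aryl hydrocarbon receptor, had 241 and 117 in C6 slow, 7.56 and 0.61 in C6 fast, 9.84 and 14 in C6SPGFP slow and 63 and 83.8 in C6SPGFP fast cells. Both changes were called, -3.93 in C6 and 2.03 in C6SPGFP, and the set difference was 5.96 ± 0.55 (limma adjusted p = 0.000605). No detection calls were used, so single-digit signals such as those of C6 fast cells here may be background. Rhox5, a homeobox gene, fell from 976 and 893 to 35.3 and 37.1 in C6 and rose from 149 and 157 to 281 and 276 in C6SPGFP. This was a set difference of 5.25 ± 0.22 (limma adjusted p = 7.41e-06), although a second, dimmer Rhox5 probe set gave -0.50 (limma adjusted p = 0.523). Rab38, a small GTPase of lysosome-related organelles, had changes of -1.87 and 1.85, the second not called (limma adjusted p = 0.0511), and a set difference of 3.72 ± 0.51 (limma adjusted p = 0.00554). Its other, dimmer probe set had changes of -0.05 and 0.48 and was not called (0.53, limma adjusted p = 0.666). Sv2b, a synaptic vesicle protein, was at 32.1 and 26.9 in C6 slow, 16.2 and 8.57 in C6 fast, 8.84 and 8.07 in C6SPGFP slow and 99.4 and 109 in C6SPGFP fast cells, with a set difference of 3.67 ± 0.35 (limma adjusted p = 0.000736). Fast cells of C6SPGFP held the highest Sv2b level of the 4 groups.

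The reverse pattern, higher in C6 fast cells and lower in C6SPGFP fast cells, was led by Il33, a nuclear cytokine released from damaged cells. Its signals were 22.2 and 11.2 in C6 slow, 47.1 and 42.9 in C6 fast, 375 and 399 in C6SPGFP slow and 24.1 and 28.4 in C6SPGFP fast cells. Slow C6SPGFP cells alone had a high level, and the set difference was -4.67 ± 0.35 (limma adjusted p = 0.00021). Cpe, carboxypeptidase E, which trims peptide hormone precursors, had 47.1 and 32.1 in C6 slow, 206 and 159 in C6 fast, 304 and 336 in C6SPGFP slow and 89.7 and 113 in C6SPGFP fast cells, and both its changes were called (2.01 in C6 and -1.59 in C6SPGFP). Together these made -3.597 ± 0.33 (limma adjusted p = 0.000545). Basp1, a membrane protein of growth cones, rose in C6 from 171 and 178 to 467 and 430.3 and fell in C6SPGFP from 220.2 and 216 to 65.6 and 61.05. The set difference was -2.99 ± 0.22 (limma adjusted p = 0.00021). Its slow levels differed by 0.31 between the sets, which was not called, and the fast levels lay on either side of them without overlap.

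Ppp2r2b, a regulatory subunit of protein phosphatase 2A, ran the same way, with 59.7 and 42.5 in C6 slow, 199 and 159 in C6 fast, 48.2 and 56.98 in C6SPGFP slow and 12.7 and 16.1 in C6SPGFP fast cells and a set difference of -3.102 ± 0.33 (limma adjusted p = 0.00113). Egr1, an immediate early transcription factor, had 32.8 and 73.5 in C6 slow, 129 and 141 in C6 fast, 207 and 154 in C6SPGFP slow and 70.6 and 63.9 in C6SPGFP fast cells. Its set difference was -2.62 ± 0.44 (limma adjusted p = 0.014) in that probe set and -1.45 ± 0.23 (limma adjusted p = 0.0111) in a brighter one, and its C6SPGFP change was called in neither. The 2 other Egr1 probe sets were not called (-0.60 and -0.53, limma adjusted p = 0.52 and 0.561). Kif12, a kinesin, was dim, at 3.25 and 3.87 in C6 slow, 15.6 and 18.5 in C6 fast, 26.9 and 24.6 in C6SPGFP slow and 4.56 and 11.5 in C6SPGFP fast cells, with a set difference of -2.22 ± 0.39 (limma adjusted p = 0.0167). The Egr1 call ended without 4 of the 8 arrays in turn in that probe set and without 2 in the brighter one, and the Kif12 call without 5 of 8 (limma adjusted p up to 0.0653, 0.0593 and 0.0681).

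**Figure D3:**
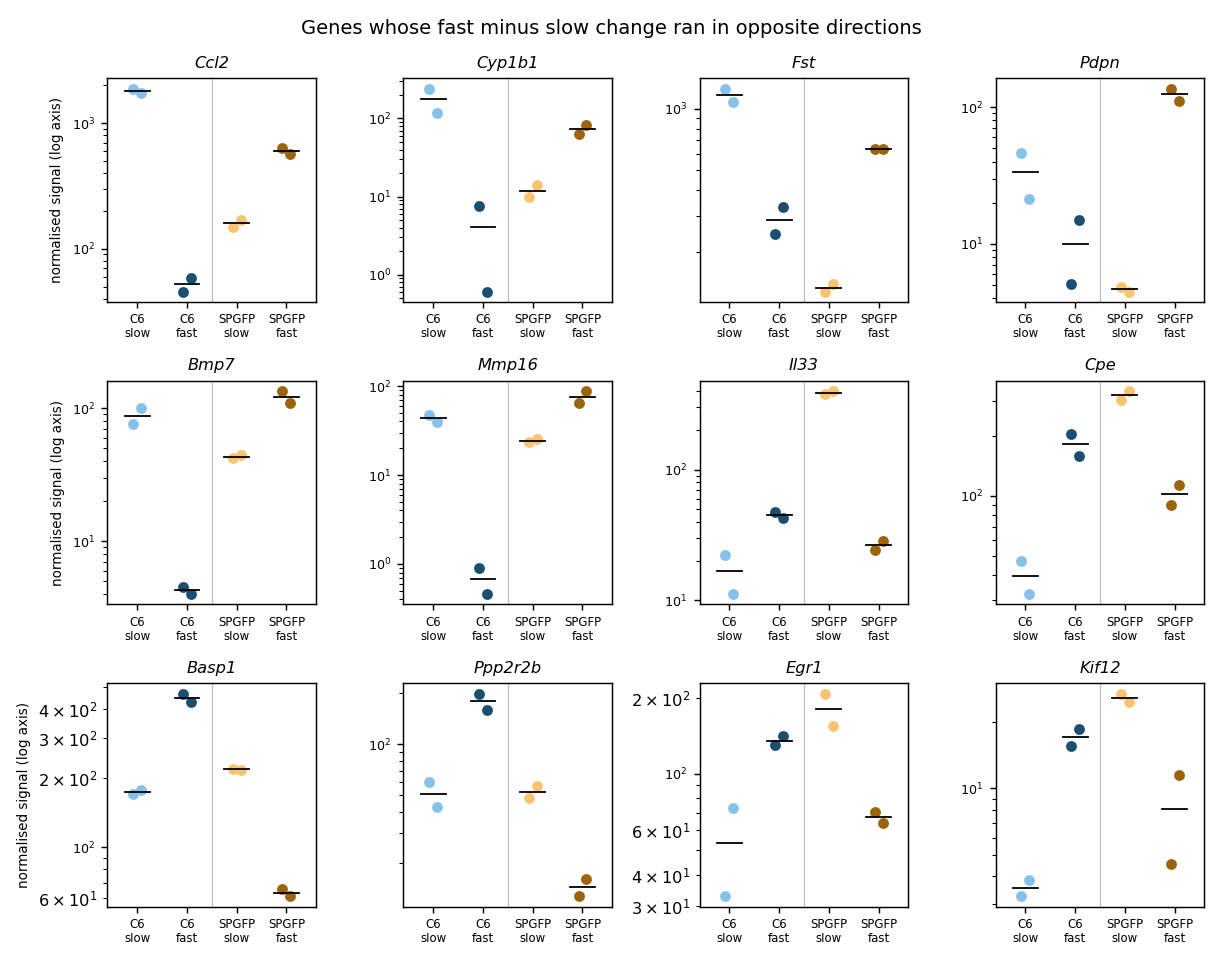
Normalised signal (log axis) of 12 genes with opposite changes, by group on the x axis; points are single arrays and bars the mean of 2. The first 6 genes were lower in C6 fast and higher in C6SPGFP fast cells than in slow cells of their set, and the last 6 the reverse.

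Of the 56 named genes with opposite changes, 38 were lower in C6 fast and higher in C6SPGFP fast cells, and 18 the reverse. Both changes were called for 11: Ccl2, Rhox5, Fst, Bmp7, Mmp16, Cyp1b1 and Asgr1 in the first direction, and Il33, Cpe, Basp1 and Ppp2r2b in the second. Asgr1, a liver lectin subunit that falls outside the rule for named genes, is given because the count is complete with it. For 18 of the 56 the sets also differed among slow cells and among fast cells, for 25 only the fast cells differed by the test, and for 13 only the slow cells.

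A full crossing, with the 2 sets differing one way among slow cells and the other way among fast cells, both called, was seen for 17 genes. In 16 the C6SPGFP level was below the C6 level in slow cells and above it in fast cells. Ccl2 was the largest, at -3.45 between slow cells and 3.34 between fast cells. Fabp5, a fatty acid binding protein, had -0.83 and 2.66, Capg, an actin filament capping protein, -1.15 and 1.45, and F3 -1.41 and 3.06. Cyp1b1, Rhox5, Pdpn, Bmp7, Fst, Sv2b, Nppb and Gbp2 crossed in the same way, as did Papss2, Gchfr, Svbp and C1r, which were named for completeness after their values were seen. Pde4b, a cAMP phosphodiesterase, was the only gene to cross the other way, at 0.95 in slow and -1.24 in fast cells. Between the sets, 424 probe sets (6.34%) were called in slow cells and 1042 (15.6%) in fast cells, and these comparisons share arrays with the fast minus slow changes.

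Promoter sequence was examined for the genes with a set difference. Promoters of 300 bases, 250 before to 50 after the RefSeq start (assembly GRCr8), were matched for 143 of the 186 called genes, 45 of them among the 56 with opposite changes. The 120 bases just before the start are printed for 2 genes of each direction that have a single start in that table. They are read 5′ to 3′ along the gene and come from Cpe (chr16:29796587-29796706, plus strand) and Basp1 (chr2:77594298-77594417, minus strand), higher in C6 fast and lower in C6SPGFP fast cells, and from Cyp1b1 (chr6:21094445-21094564, plus strand) and Pdpn (chr5:160918960-160919079, minus strand), of the reverse pattern. The C6 fall of Pdpn was not called (limma adjusted p = 0.0945). Capitals mark the GC box, GGGCGG or its reverse complement CCGCCC, a motif bound by Sp family factors.
Cpe: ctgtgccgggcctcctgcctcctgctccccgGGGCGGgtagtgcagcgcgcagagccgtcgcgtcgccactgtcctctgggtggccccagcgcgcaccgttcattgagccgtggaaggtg
Basp1: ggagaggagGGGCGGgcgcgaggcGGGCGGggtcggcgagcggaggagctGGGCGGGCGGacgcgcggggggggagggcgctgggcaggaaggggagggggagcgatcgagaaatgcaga
Cyp1b1: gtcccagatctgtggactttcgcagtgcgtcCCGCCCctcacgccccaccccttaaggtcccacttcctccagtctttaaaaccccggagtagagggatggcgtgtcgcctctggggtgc
Pdpn: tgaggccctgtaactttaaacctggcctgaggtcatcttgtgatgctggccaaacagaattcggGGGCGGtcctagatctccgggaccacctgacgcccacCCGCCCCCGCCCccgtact
The 4 stretches held 1, 4, 1 and 3 GC boxes, counting overlapping matches on both strands. In the 300 bases a GC box stood in 64.4% of promoters of genes with opposite changes, 59.2% of those that moved in C6 alone, 53.8% of those that moved in C6SPGFP alone, 59.9% of all genes tested and 34.9% of all promoters. The AP-1 letters TGANTCA stood in 8.9%, 0.0% and 0.0% of the first 3 groups, in 5.8% of genes tested and in 7.3% of all promoters. The SOX letters ACAATG stood in 4.4%, 11.8% and 0.0%, against 7.2% of genes tested and 13.0% of all promoters, and the E-box CACGTG in 6.7%, 7.9% and 7.7%, against 9.3% and 6.7%. The genes with opposite changes, C6 alone and C6SPGFP alone had 45, 76 and 13 promoters, and 13 are too few to read 0.0% as an absence. Both strands were searched, and these shares are a description without a test. Genes going up and genes going down with speed therefore both had GC boxes, as do most genes on the array.

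Changes in C6 alone formed the largest group, 99 named genes, of which 69 were lower and 30 higher in C6 fast cells than in C6 slow cells. In 13 of the 99 both C6SPGFP group means were under 8, so their C6SPGFP change is shrunk by the pseudocount. Among the 99, C6 fast cells stood apart from all other groups in 77. Where the sets were set against each other, 75 differed by the test among fast cells only, 7 among slow cells only and 14 among both.

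The lowered genes included regulators and surface proteins of glia. Sox10, the transcription factor of myelinating glia, had 240.5 and 367 in C6 slow, 2.23 and 0.90 in C6 fast, 531 and 571 in C6SPGFP slow and 433 and 411 in C6SPGFP fast cells. Its C6SPGFP change was -0.38 with a 95% interval of -0.88 to 0.13, and its set difference 4.62 ± 0.31 (limma adjusted p = 0.000126). C6 fast cells stood alone near the floor of the array, while the other 3 groups were high. Tubb2b, a neural beta-tubulin, had 1629 and 1742 in C6 slow, 31.97 and 34 in C6 fast, 3357 and 3515 in C6SPGFP slow and 2796 and 2535 in C6SPGFP fast cells, with a C6SPGFP change of -0.37 (95% interval -0.64 to -0.10) and a set difference of 5.002 ± 0.17 (limma adjusted p = 3.64e-06). Tubulin genes are close copies of each other, and which copies a probe set reads was not checked.

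Cd81, a tetraspanin that organises membrane partners, fell from 185 and 117 to 2.23 and 2.65 in C6 and was 355 and 362 in slow and 324 and 388 in fast C6SPGFP cells. The set difference of Cd81 was 3.88 ± 0.33 (limma adjusted p = 0.000415), and that of its relative Cd9, 2.64 ± 0.28 (limma adjusted p = 0.00116) in its brighter probe set. The other Cd9 probe set had changes of -2.29 in C6 and 0.53 in C6SPGFP and a set difference of 2.82 (limma adjusted p = 0.000162). Through that probe set Cd9 was counted among the named genes with opposite changes. Pmepa1, a TGF-beta target that damps TGF-beta signalling, was at 3247 and 2886 in C6 slow, 121 and 139 in C6 fast, 3640.01 and 3357 in C6SPGFP slow and 3287 and 3416 in C6SPGFP fast cells, a set difference of 4.42 ± 0.17 (limma adjusted p = 3.76e-06). Aatk, a neural kinase, had a set difference of 4.61 ± 0.22 (limma adjusted p = 1.58e-05), with signals of 2.98 and 2.65 in C6 fast cells and at least 254 in every other array. Bin1, a protein that bends membranes, had a set difference of 3.67 ± 0.49 (limma adjusted p = 0.00488), with 43.02 and 13.6 in C6 fast cells. In each of these genes the 2 C6 fast arrays were the lowest of the 8.

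S100b, a glial calcium-binding protein, had a narrow interval around 0 in the second set. Its signals were 421 and 395 in C6 slow, 56.8 and 74.95 in C6 fast, 1221 and 1230.01 in C6SPGFP slow and 1275 and 1247 in C6SPGFP fast cells. The C6 change was -2.504, the C6SPGFP change 0.04 with a 95% interval of -0.32 to 0.40, and the set difference 2.54 ± 0.22 (limma adjusted p = 0.000433). A second, dimmer S100b probe set gave 0.13 (limma adjusted p = 0.903). Ptprz1, a receptor phosphatase of glial progenitors, had a set difference of 3.57 ± 0.35 (limma adjusted p = 0.000771), Itga1, a collagen-binding integrin, 3.34 ± 0.33 (limma adjusted p = 0.000834), and Calcb, a calcitonin gene-related peptide, 3.599 ± 0.23 (limma adjusted p = 0.000114).

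Pla2g4a and Ptgs2 were high on the C6 fast arrays and near the floor on the arrays of the other 3 groups. Pla2g4a, the phospholipase that frees arachidonic acid, had 6.39 and 12.2 in C6 slow, 407 and 549 in C6 fast, 8.38 and 16.01 in C6SPGFP slow and 11.3 and 5.31 in C6SPGFP fast cells and a set difference of -5.12 ± 0.44 (limma adjusted p = 0.000433). Ptgs2, inducible cyclooxygenase, which acts on arachidonic acid, had 3.25 and 3.12 in C6 slow, 129.7 and 143 in C6 fast, 4.56 and 1.91 in C6SPGFP slow and 1.09 and 1.29 in C6SPGFP fast cells and a set difference of -3.97 ± 0.34 (limma adjusted p = 0.000415). Ptgs1, the other cyclooxygenase, went the other way between the sets: 126 and 82.8 in C6 slow, 61.05 and 120.01 in C6 fast, 24.04 and 33.1 in C6SPGFP slow and 125 and 174 in C6SPGFP fast cells, with a C6 change of -0.23, a C6SPGFP change of 2.103 and a set difference of 2.33 ± 0.48 (limma adjusted p = 0.0348). The Ptgs1 call ended without 6 of the 8 arrays in turn (limma adjusted p up to 0.141).

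Atp1b1, a sodium pump subunit, was measured by several called probe sets. The brightest had 59.5 and 50.2 in C6 slow, 1466 and 1112 in C6 fast, 45.3 and 58.6 in C6SPGFP slow and 54.6 and 69.4 in C6SPGFP fast cells and a set difference of -4.13 ± 0.32 (limma adjusted p = 0.00022), and the next brightest -5.19 ± 0.32 (limma adjusted p = 8.14e-05). A further, dim Atp1b1 probe set was called with a smaller set difference (-2.34, limma adjusted p = 0.015). Neuronal genes in this group were Rtn1, a reticulon of the endoplasmic reticulum (-3.698 ± 0.38, limma adjusted p = 0.000945), Olfm1, a secreted olfactomedin (-3.49 ± 0.37, limma adjusted p = 0.00113), and Lsamp, an adhesion protein (-3.25 ± 0.45, limma adjusted p = 0.00549). Their signals were 137 and 143, 82.3 and 121 and 74.1 and 148 in C6 fast cells and at most 9.46 on every other array. A second Olfm1 probe set gave 0.05 (limma adjusted p = 0.972). Slc2a5, a fructose transporter, had a set difference of -3.38 ± 0.35 (limma adjusted p = 0.000988), but a second, brighter probe set was not called (-1.68, limma adjusted p = 0.282). Pde2a, a phosphodiesterase, had a set difference of -3.09 ± 0.33 (limma adjusted p = 0.00112), and Nr2f2, a nuclear receptor, one of -2.33 ± 0.27 (limma adjusted p = 0.00186). The 2 C6 fast arrays were the highest of the 8 for every gene of this paragraph.

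Changes in C6SPGFP alone numbered 19 named genes, 16 higher and 3 lower in C6SPGFP fast than in C6SPGFP slow cells. In 9 of them both C6 group means were under 8, where the pseudocount shrinks a change on the log2(signal + 8) scale. C6SPGFP fast cells stood apart in 11 and C6SPGFP slow cells in 6. The C6SPGFP change was itself called in 18.

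Sncg, gamma-synuclein, a neuronal protein, had 2.17 and 2.41 in C6 slow, 2.23 and 1.96 in C6 fast, 1.52 and 2.05 in C6SPGFP slow and 144 and 236 in C6SPGFP fast cells. Its set difference was 4.33 ± 0.39 (limma adjusted p = 0.000541). Ass1, argininosuccinate synthase of the urea cycle, was at 1.25 and 2.29 in C6 slow, 1.11 and 1.06 in C6 fast, 1.25 and 1.43 in C6SPGFP slow and 83.1 and 96.2 in C6SPGFP fast cells, with a set difference of 3.49 ± 0.34 (limma adjusted p = 0.000769). Gnrhr, the gonadotropin-releasing hormone receptor, had a set difference of 3.55 ± 0.34 (limma adjusted p = 0.000755), although its other 2 probe sets were not called (1.54 and 0.97). All 3 were low in 3 groups and highest on the C6SPGFP fast arrays. Foxs1, a forkhead factor (2.38 ± 0.38, limma adjusted p = 0.0114), and Col3a1, a fibrillar collagen (2.07 ± 0.40, limma adjusted p = 0.0266), had the same shape with smaller set differences. A brighter Col3a1 probe set was not called (0.51, limma adjusted p = 0.581).

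Nqo1, a quinone reductase of the antioxidant response, differed in shape. Its signals were 2055 and 1543 in C6 slow, 1784 and 1788 in C6 fast, 355 and 356 in C6SPGFP slow and 1131 and 1845 in C6SPGFP fast cells, so that C6SPGFP slow cells were the low group while 1 C6SPGFP fast array lay within the range of the C6 arrays and the other below it. The set difference was 1.995 ± 0.31 (limma adjusted p = 0.0111). Psme2, a proteasome activator subunit induced by interferon, and Klf4, a Krüppel-like factor, had the same shape, with set differences of 0.89 ± 0.20 (limma adjusted p = 0.0483) and 1.41 ± 0.22 (limma adjusted p = 0.0104). Lower in C6SPGFP fast cells were Kcnj10, a glial potassium channel (-2.69 ± 0.45, limma adjusted p = 0.013), Prkcb, protein kinase C beta (-1.59 ± 0.35, limma adjusted p = 0.0422), and Tnfrsf21, a death receptor (-1.43 ± 0.30, limma adjusted p = 0.0355). Kcnj10 was at 124 and 61.95 in C6SPGFP slow cells and between 4.53 and 8.05 on the 6 other arrays. A second Kcnj10 probe set (-1.06, limma adjusted p = 0.343) and 2 further Prkcb probe sets (-0.83 and -0.08, limma adjusted p = 0.54 and 0.942) were not called. Calls of Foxs1, Col3a1, Klf4, Kcnj10, Prkcb, Psme2 and Tnfrsf21 each ended without at least 1 array (highest limma adjusted p of 0.0585, 0.111, 0.0542, 0.0597, 0.17, 0.175 and 0.132).

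**Figure D4:**
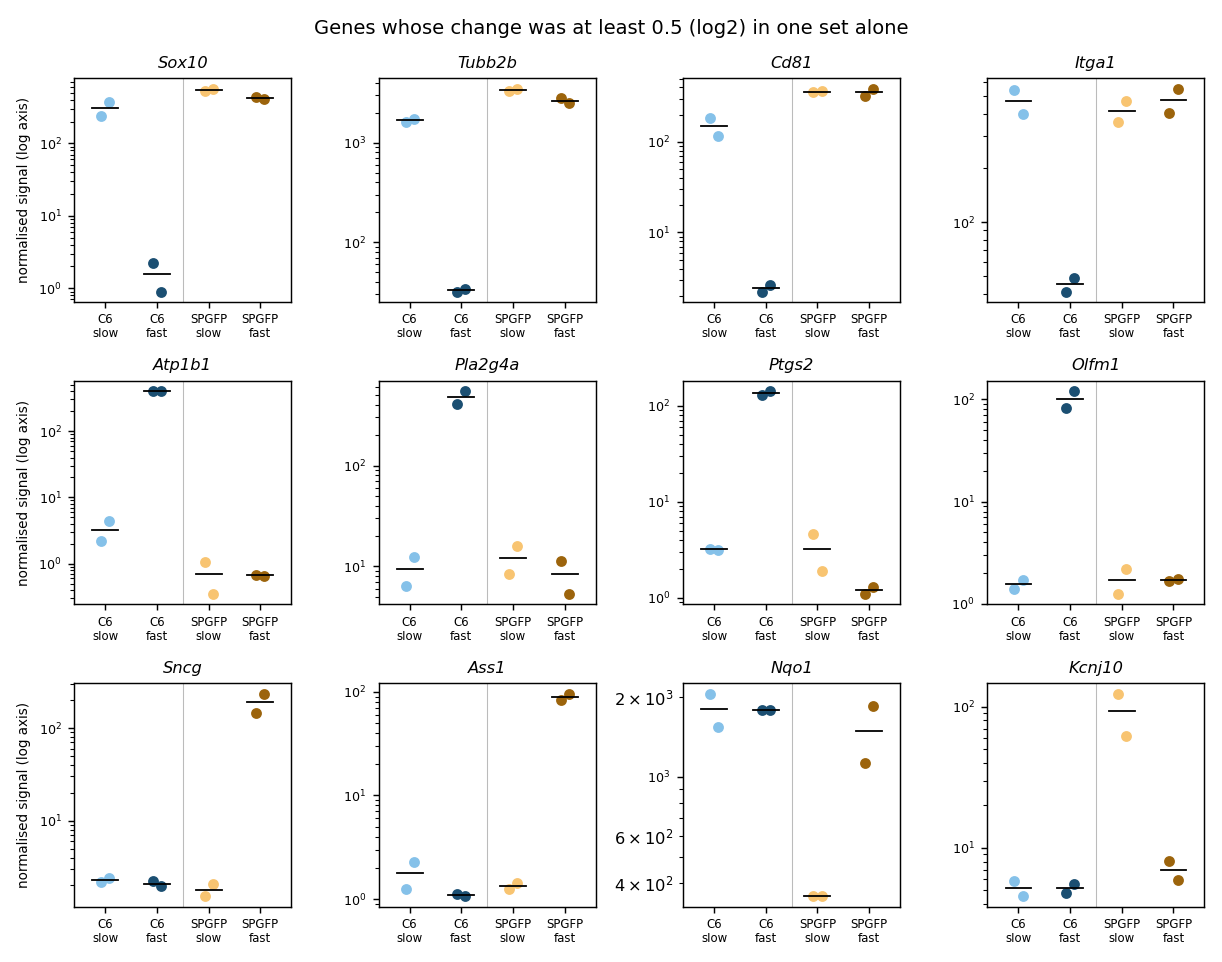
Normalised signal (log axis) of 12 genes whose change reached 0.5 on the log2 scale in one set alone, by group on the x axis; points are single arrays and bars the mean of 2. Sox10, Tubb2b, Cd81 and Itga1 were low and Atp1b1, Pla2g4a, Ptgs2 and Olfm1 high in C6 fast cells only, and the last 4 genes moved in C6SPGFP.

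Same-direction genes of different size were few, 10 named genes. Lama3, a laminin chain of basement membranes, rose in both sets, with 20.8 and 20.2 in C6 slow, 334 and 518 in C6 fast, 3.23 and 0.74 in C6SPGFP slow and 32.7 and 37.4 in C6SPGFP fast cells, more in C6 (3.896) than in C6SPGFP (2.12). Its set difference was -1.78 ± 0.37 (limma adjusted p = 0.0355), and the call ended without any 1 of the arrays except C6 fast replicate 1 (limma adjusted p up to 0.132) and with a pseudocount of 2 (limma adjusted p = 0.464). Spn, the sialoglycoprotein CD43, also rose in both, more in C6SPGFP, with 16.5 and 19.9 in C6 slow, 116 and 115 in C6 fast, 3.66 and 2.05 in C6SPGFP slow and 131 and 136 in C6SPGFP fast cells and a set difference of 1.47 ± 0.28 (limma adjusted p = 0.0263). Its call ended without 7 of the 8 arrays in turn (limma adjusted p up to 0.116). The sets differed among slow cells (-1.27) and by 0.20 among fast cells, the second not called. Cdc42ep3, a Cdc42 effector, had a set difference of -1.92 ± 0.31 (limma adjusted p = 0.0114). Reln, the secreted guidance protein reelin (2.75 ± 0.49, limma adjusted p = 0.0172), and Prickle2, a planar polarity protein (2.71 ± 0.26, limma adjusted p = 0.000755), fell in C6, while their C6SPGFP changes of -0.75 and -0.57 were not called. The calls of Cdc42ep3 and Reln ended without 2 and 5 of the arrays in turn (limma adjusted p up to 0.0546 and 0.0759).

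The gene lists were read with 1 probe set per gene, the brightest, so a gene's value can differ from the one above. On that basis 160 of 3878 genes (4.13%) were called on the set difference, 118 positive (3.04%) and 42 negative (1.08%), and the median set difference of all genes was -0.04 with a median size of 0.32. For 36 of the genes given with values, 49 further probe sets were tested: 13 were called with the same sign, 32 had the same sign but were not called, and 4 had the opposite sign and were not called (1 each for Rhox5, Marcks, Igf1 and Olfm1). Besides those described singly, uncalled probe sets of the same sign were those of Acat2, Bgn, Bin1, Ier3, Klf4, Mdh2, Nqo1, Pde4b, Pfkp, Prickle2, Ptgs2, Ptprz1 and Tnfrsf21. Members named in this and the next paragraphs beyond those above were chosen by their list's count. Counts of members are a description and not a test of the list. The lists were chosen with earlier results of these data known, so a share above 4.13% is not evidence about a list.

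Set differences were positive in 12 and negative in 8 of 20 tested genes of the myelinating glia list, and positive in 20 and negative in 6 of 26 of the astroglial and progenitor list. In the myelinating glia list 6 of 20 tested genes (30.0%) were called, against 4.13% of all genes. Calls among all genes were positive in 118 of 160. All 6 of this list were positive: Sox10, Cd81, Cd9, S100b, Ngfr, a neurotrophin receptor, and Cnp, a myelin enzyme. The list's median change was -0.48 in C6 and -0.19 in C6SPGFP, against 0.01 and -0.03 for all genes. In the astroglial and progenitor list 7 of 26 (26.9%) were called, with 6 positive (Pdpn, Ptprz1, Fabp5, Ndrg2, S100b and the filament Nes) and 1 negative (Kcnj10). Its medians were -0.22 and 0.11. Of these 7, Pdpn and Fabp5 ran in opposite directions, 4 moved in C6 alone and Kcnj10 in C6SPGFP alone.

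Actin and membrane linker genes were called in 8 of 39 (20.5%, against 4.13% of all genes). All 8 were positive, as were 118 of the 160 calls among all genes. Ezr, ezrin, which ties membrane to actin, had 667 and 522 in C6 slow, 134 and 81.97 in C6 fast, 460.2 and 363 in C6SPGFP slow and 531 and 729 in C6SPGFP fast cells and a set difference of 2.999 ± 0.37 (limma adjusted p = 0.00306), and Capg, with 1195 and 1119 in C6 slow, 300.04 and 321 in C6 fast, 429 and 625 in C6SPGFP slow and 946 and 786 in C6SPGFP fast cells, had a set difference of 2.597 ± 0.27 (limma adjusted p = 0.000988). Bin1, Add3, Marcks, Cnn3, Rhob and Arpc1b were the others, the last with both changes under 0.5. Marcks, a protein kinase C substrate, had a set difference of 1.09 ± 0.22 (limma adjusted p = 0.0332), a call that ended without 6 of the arrays in turn (limma adjusted p up to 0.132), and the 4 other Marcks probe sets were not called, 1 of them with a negative sign.

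Matrix genes were called in 6 of 28 (21.4%, against 4.13% of all genes), with Eln, Bgn, Agrn, Col1a1 and Fn1 positive and Lama3 negative. Bgn, the proteoglycan biglycan, and Agrn, the proteoglycan agrin, fell in C6, with set differences of 1.93 ± 0.38 (limma adjusted p = 0.0301) and 1.44 ± 0.30 (limma adjusted p = 0.0368). The calls ended without 6 and 7 of the arrays in turn (limma adjusted p up to 0.132 and 0.17). Fn1, fibronectin, moved in C6SPGFP alone, from 1037 to 1949 in group means of its brightest probe set, whose set difference was 1.03 (limma adjusted p = 0.0121). The 4 other Fn1 probe sets were not called. Protease genes were called in 4 of 38 (10.5%), with F3, Mmp16 and Ctsl positive and Cpe negative. Ctsl, the lysosomal protease cathepsin L, fell in C6 from 767 and 773 to 213 and 148 and was 778 and 855 in slow and 1019.7 and 1179 in fast C6SPGFP cells. The set difference was 2.49 ± 0.26 (limma adjusted p = 0.000988).

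The TGF-beta, BMP and activin list had 5 of 34 called (14.7%, against 4.13% of all genes). Calls among all genes were positive in 118 of 160. All 5 of this list were positive: Pmepa1, Bmp7, Fst, Nbl1 and Tgfb3. They include a ligand that was low in C6 fast cells (Bmp7), 2 secreted antagonists (Fst and Nbl1) and a target that damps the pathway (Pmepa1). Growth factors and receptors had 3 of 44 (6.8%). Gfra1, the GDNF co-receptor, was at 181 and 165 in C6 slow, 11.7 and 19.5 in C6 fast, 378 and 399.6 in C6SPGFP slow and 618 and 652 in C6SPGFP fast cells, a set difference of 3.66 ± 0.28 (limma adjusted p = 0.00022). Efna1, an ephrin, rose in C6 alone (-1.54 ± 0.29, limma adjusted p = 0.0243), a call that ended without 5 of the arrays in turn (limma adjusted p up to 0.1). In the insulin-like growth factor list 2 of 16 (12.5%) were called. Grb14, an adaptor that inhibits the insulin receptor, had a set difference of 2.98 ± 0.35 (limma adjusted p = 0.00221). Igf1, with 18.3 and 20.5 in C6 slow, 158 and 68.2 in C6 fast, 65.8 and 75.04 in C6SPGFP slow and 66.1 and 54.7 in C6SPGFP fast cells, had a set difference of -2.24 ± 0.47 (limma adjusted p = 0.0386), and its call ended without 6 of the arrays in turn (limma adjusted p up to 0.16), while its 4 other probe sets were not called (-1.16, -0.90, -0.48 and 0.11).

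Chemokines, cytokines and receptors had 3 of 31 called (9.7%, against 4.13% of all genes). Besides Ccl2 and Il33 this was Il6, with 33.4 and 31.8 in C6 slow, 7.39 and 3.20 in C6 fast, 1.86 and 8.26 in C6SPGFP slow and 9.11 and 10.1 in C6SPGFP fast cells and a set difference of 2.103 ± 0.43 (limma adjusted p = 0.0355). Il6 was high only in C6 slow cells, and the call ended without 6 of the arrays in turn (limma adjusted p up to 0.121). In the interferon and antigen presentation list 2 of 33 (6.1%) were called, Psme2 and Gbp2. Gbp2, a guanylate-binding protein, had 63.2 and 58.3 in C6 slow, 37.5 and 19.1 in C6 fast, 18.5 and 26.04 in C6SPGFP slow and 59.3 and 61.6 in C6SPGFP fast cells. Its set difference was 2.16 ± 0.39 (limma adjusted p = 0.0196). Gbp2 lost its call without 5 of the arrays in turn (limma adjusted p up to 0.0832).

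Antioxidant and detoxification genes had a positive set difference in 33 of 47, with a median of 0.26 and medians of -0.06 in C6 and 0.23 in C6SPGFP. All genes had 1824 positive of 3878. The 4 called, 8.5% of the 47 against 4.13% of all genes, were Cyp1b1, Nqo1, Aldh2 and Gsta1, all positive. Aldh2, mitochondrial aldehyde dehydrogenase, had 174 and 192 in C6 slow, 42.05 and 35.6 in C6 fast, 117 and 124 in C6SPGFP slow and 159 and 151 in C6SPGFP fast cells and a set difference of 2.37 ± 0.25 (limma adjusted p = 0.00112). Gsta1, a glutathione transferase, was read by probe sets of a family of close copies, which cannot be told apart here.

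Sterol and fatty acid synthesis genes showed the reverse lean, with 20 of 26 negative and a median set difference of -0.37. Their median change was 0.35 in C6 and -0.10 in C6SPGFP. Only Acat2, which forms acetoacetyl-CoA at the start of sterol synthesis, was called, with 1265 and 1959.6 in C6 slow, 2352 and 2498 in C6 fast, 1828 and 1788 in C6SPGFP slow and 1232 and 1251 in C6SPGFP fast cells and a set difference of -1.16 ± 0.25 (limma adjusted p = 0.0431), 1 of 26 against 4.13% of all genes. Without 6 of the 8 arrays in turn its call ended (limma adjusted p of 0.106 to 0.154). Srebf1, a regulator of lipid synthesis genes, had changes of 0.39 in C6 and 1.77 in C6SPGFP, and its set difference was not called (limma adjusted p = 0.109). The list's lean is therefore not carried by calls of single genes.

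Neuronal and synaptic genes had calls of both signs, 8 of 37 (21.6%, against 4.13% of all genes). Positive were Sv2b, Sncg and Reln, and negative were Rtn1, Lsamp, Olfm1, Basp1 and Gphn, a synaptic scaffold. Their median set difference was -0.17 and their median size 0.77, against 0.32 for all genes. Developmental transcription regulators had 7 of 57 called (12.3%). Pou3f3, a neural POU factor, was at 12.4 and 9.80 in C6 slow, 241 and 219 in C6 fast, 11.6 and 16.3 in C6SPGFP slow and 8.50 and 4.81 in C6SPGFP fast cells, with a set difference of -4.23 ± 0.34 (limma adjusted p = 0.000267). Rhox5, Sox10, Foxs1, Lhx2 and Rxrg were positive and Nr2f2 negative, so neural and other regulators were found on both sides. Immediate early genes had 4 of 30 (13.3%), with Nr4a1, Ier3 and Klf4 positive and Egr1 negative. Nr4a1, an orphan nuclear receptor, had a set difference of 2.61 ± 0.42 (limma adjusted p = 0.0114) and Ier3, an early response gene, 1.67 ± 0.23 (limma adjusted p = 0.00576). The Nr4a1 call ended without either C6SPGFP fast array (limma adjusted p up to 0.0581).

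Signalling, transport and the other lists of this paragraph had small counts of called genes. Among these lists only the endocytosis list (3.4%) had a share below the 4.13% of all genes. The share was 5.7% for pumps and channels, 10.3% for protein kinase C and cAMP signalling and 12.1% for neuropeptides and their processing. Whether these shares differ from that of all genes was not tested. Protein kinase C and cAMP signalling genes had 4 of 39 (Marcks and the receptor Adrb1 positive, Pde2a and Pde4b negative). Adrb1, a beta-adrenergic receptor, had 48.9 and 60.5 in C6 slow, 3.51 and 5.25 in C6 fast, 67.5 and 62.8 in C6SPGFP slow and 54.98 and 60.3 in C6SPGFP fast cells and a set difference of 2.18 ± 0.30 (limma adjusted p = 0.00535), and Pde4b 113 and 89.9 in C6 slow, 245 and 265 in C6 fast, 199 and 206 in C6SPGFP slow and 85.5 and 124 in C6SPGFP fast cells and a set difference of -2.19 ± 0.30 (limma adjusted p = 0.00554). Pumps and channels had 3 of 53: Jph2, a junctophilin, with 23.5 and 7.93 in C6 slow, 4.34 and 3.85 in C6 fast, 5.64 and 3.50 in C6SPGFP slow and 87.5 and 57.2 in C6SPGFP fast cells and a set difference of 3.54 ± 0.50 (limma adjusted p = 0.00604), and Atp1b1 and Kcnj10 given above. Neuropeptides and their processing had 4 of 33, namely Calcb, Nppb and Gnrhr positive and Cpe negative. Nppb, a natriuretic peptide, had 173 and 73.2 in C6 slow, 7.18 and 6.59 in C6 fast, 36.2 and 35.96 in C6SPGFP slow and 47.1 and 35.96 in C6SPGFP fast cells and a set difference of 3.19 ± 0.49 (limma adjusted p = 0.0103), a call that ended without C6SPGFP fast replicate 1 (limma adjusted p = 0.0531). Tetraspanins had 2 of 8 (Cd81 and Cd9), integrins and adhesion genes 2 of 24 (Itga1 and Spn), tubulins 1 of 15 (Tubb2b), endocytosis genes 1 of 29 (Bin1) and the arachidonic acid list 3 of 20.

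Housekeeping lists were called in 0.0% to 2.9% of their tested genes and glycolysis in 9.1%, against 4.13% of all genes. None of 44 cell cycle and replication genes was called by limma (4 at an unadjusted p under 0.05), and their median changes were 0.18 in C6 and 0.20 in C6SPGFP. None of 37 cytosolic ribosomal protein genes was called by limma (4 unadjusted), with medians of 0.02 and 0.01. Whether the absence of calls in lists of this size differs from the share of all genes was not tested. Respiratory chain genes had 1 of 40, Mdh2, a citric acid cycle enzyme (0.84 ± 0.17, limma adjusted p = 0.0294), and heat shock genes 1 of 35, Hspa1a, an inducible Hsp70 (1.605 ± 0.35, limma adjusted p = 0.0407). Glycolysis had 2 of 22, both rising in C6: Pdk1, a kinase that holds back pyruvate oxidation (-1.57 ± 0.34, limma adjusted p = 0.0406), and Pfkp, a phosphofructokinase (-1.07 ± 0.21, limma adjusted p = 0.0322). These 4 calls ended without at least 7 of the 8 arrays in turn, with limma adjusted p up to 0.116 for Mdh2, 0.154 for Hspa1a, 0.175 for Pdk1 and 0.152 for Pfkp. The sign of Pfkp turned when the deposited scale was kept (0.06, limma adjusted p = 0.973).

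**Figure D5:**
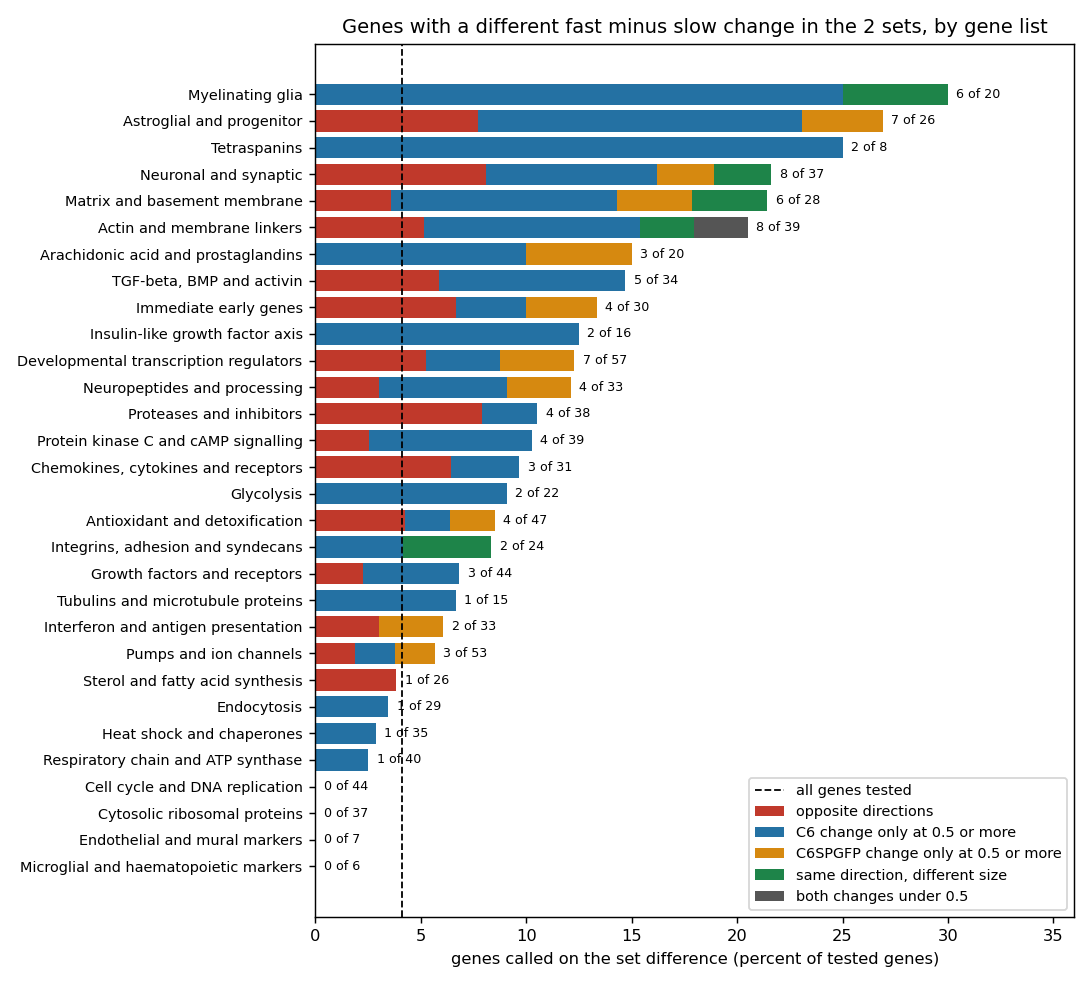
Percent of tested genes called on the set difference (x axis) in each gene list (y axis), with 1 probe set per gene, coloured by how the change ran in the 2 sets; the dashed line is the share among all 3878 genes, 4.13%. The myelinating glia list has the highest share, 6 of 20, and the cell cycle, ribosomal, microglial and endothelial lists have none. The lists were chosen with earlier results of these data known, so the shares are a description and not a test.

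Short panels of markers of other cell types were also read. None of 4 tested microglial and haematopoietic markers, none of 6 endothelial and mural markers and none of 5 neuronal markers in these panels was called by limma (0, 1 and 2 of them, in that order, at an unadjusted p under 0.05), whereas the longer neuronal and synaptic list above had 8 of 37 called. The summed microglial signal was 89.2 to 98.9 in C6 slow, 134.0 to 152.3 in C6 fast, 108.8 to 110.3 in C6SPGFP slow and 110.6 to 111.4 in C6SPGFP fast cells, and Cd37, a leukocyte tetraspanin, was highest on the C6 fast arrays. Itgam, Cd74, Lyz2 and Fcgr2b were below the filter. Endothelial and mural sums lay between 494.0 and 584.0 and neuronal sums between 79.6 and 151.0 on all arrays. Glial markers summed to 4538 to 4826 in C6 slow, 2955 to 3163 in C6 fast, 6604 to 6714 in C6SPGFP slow and 6362 to 6469 in C6SPGFP fast cells, with S100b, Nes and Cnp called, Fabp7 below the filter and Gfap without a named probe set. Their part in the other set differences was not tested. The 3′/5′ ratio of the Gapdh controls, which is near 1 in intact RNA, was 0.967 to 1.052, that of beta-actin 1.006 to 1.122 and that of hexokinase 1.486 to 2.227 over the 8 arrays. The hexokinase ratio was 2.227 and 1.883 in C6 slow, 1.981 and 1.571 in C6 fast, 1.722 and 1.486 in C6SPGFP slow and 1.721 and 1.611 in C6SPGFP fast cells, and its part in the set differences was not tested.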

How the data were processed

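RNA of 8 samples was measured on Affymetrix rat arrays, 2 per group, and groups were taken from the sample titles. The authors deposited linear probe set intensity values, 1 per probe set and array, and the sources used here do not name the software or scaling behind them. Judged by their values, 7 arrays had a 2% trimmed mean of 100.1 to 105.8 and 1 array 500.5, so the signals were quantile normalised between arrays.

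Values were log2(signal + 8), and the 59 control probe sets and 2056 with a mean signal under 8 were left out, leaving 6684. A pseudocount understates the change of dim genes, no detection calls were used, and 2 arrays per group limit the precision. Means of the 4 groups were fitted with limma 3.58.1 in R 4.3.3 (lmFit, eBayes with a trend, two-sided), with Benjamini-Hochberg adjustment over all probe sets within a comparison. The fit left 4 residual and 4.49 prior degrees of freedom. On simulated data it recovered 11 of 100 set differences of size 1 on the log2 scale and 65 of 100 of size 2, with 3 false calls. Most simulated differences of size 1 were thus missed, and a gene without a call is not shown to be without a difference. Tables were joined with Python 3.11.15 and pandas 2.3.3.

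Of the probe sets, 7018 carried 1 gene symbol in the platform's table, 308 several and 1473 none. Of the first, 6994 took their current symbol through the Entrez identifier in a RefSeq table of assembly GRCr8, and 24 kept the older one. Only probe sets with 1 symbol were named.

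Named genes were those called on the set difference with no overlap between slow and fast arrays in any set that moved: the 6 leading ones per direction with opposite changes (by the smaller of both changes), 6 per direction for each set alone, 2 per direction of the same sign, up to 3 per direction of each of 30 gene lists, and Vim and S100b. The genes, lists and classes were chosen with earlier results of these data known. Alternatives were other scaling, pseudocount, filter and trend settings, a replicate block and leaving out each array. Replicate numbers are shared between groups, but the deviations of same-numbered arrays correlated at -0.127 to 0.266, so they were not taken as pairs. No pair of arrays held identical values.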

Additional observations from a re-analysis of the deposited data

Results flagged for a closer look

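The fast minus slow change differed between the sets at 255 probe sets by a test of the difference itself (limma, adjusted over 6684 probe sets). By class these were 79 with opposite changes, 136 that moved in C6 alone, 26 that moved in C6SPGFP alone, 12 that moved the same way by different amounts and 2 with both changes under 0.5 on the log2 scale. Of all 6684 probe sets these classes held 2.3%, 18.7%, 8.4%, 3.1% and 67.5%, in that order. Groups of 2 arrays are too small for a check on single outlying samples.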

How the results depend on the processing

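With the deposited scale kept, where 1 C6SPGFP fast array is on a larger scale, the median set difference moved to 1.08 and the counts collapsed: 24 set differences (95.8% positive, against 71.0%), 20 called in C6, 15 in C6SPGFP (all higher, against 76.3%), 2 between slow cells, 182 between fast cells (94.0% higher, against 53.2%), 20 opposite, 1 in C6 alone, 3 in C6SPGFP alone, 0 of the same direction and 0 under 0.5. Of the named probe sets 63 of 84 lost their call there, and Pfkp turned to 0.06. A common trimmed mean gave 264 set differences, 235 of them shared, 73.1% positive. With a pseudocount of 32 the opposite class held 52 probe sets, C6SPGFP alone 50 and the same direction 6. The 50th percentile filter left 13 in C6SPGFP alone and 1 under 0.5, and a common trimmed mean, no trend or the replicate block left 0 under 0.5. Counting a move from 1 gave 24 opposite, 4 of the same direction and 34 under it. Fitting C6 alone gave 230 C6 calls. The replicate block gave 235 set differences, 218 shared. Leaving out 1 array gave 122 to 273 set differences, 286 to 445 calls in C6, 21 to 107 in C6SPGFP, 95 to 422 between slow and 517 to 1125 between fast cells. The classes then held 52 to 96, 53 to 150, 10 to 30, 1 to 14 and 0 to 1 probe sets, in the order opposite, C6 alone, C6SPGFP alone, same direction and under 0.5. Of 84 named probe sets 54 kept their call in each such run, and 68 did so under the other settings apart from the deposited scale. The cause of these shifts was not tested. Without detection calls, single-digit signals may be background, and the size of a change into that range is uncertain.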
